A study of Mus musculus with 24 samples.

Results

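The genes of the cohesin complex, its loader and its regulators were followed in RNA of cardiomyocyte (CM) nuclei from mouse hearts. Their 10 members were listed by name: Smc1a, Smc3, Rad21, Stag1 and Stag2 of the ring, the loader Nipbl, and the regulators Pds5a, Pds5b, Wapl and Esco1. All 10 were among the 56923 genes counted and among the 20368 that passed the filter on low counts. CM nuclei were sorted on PCM1, a protein of the nuclear rim of CMs, from pools of 15 hearts at postnatal day (P) 1, 6 hearts at P7 and 2 hearts at P14, and 3′-end libraries were made from their RNA. Control mice were XMLC2(-)Casp2(fl/fl), that is, with floxed Casp2 and no Cre, and Casp2-depleted mice were XMLC2(+)Casp2(fl/fl), in which the XMLC2 promoter drives Cre in CMs. Both genotypes therefore carried the floxed alleles, and a group of mice with Cre alone was not analysed here. Each of the 6 groups had 4 libraries. The study left out 3 for low quality, which were replicate 1 of the P1 controls, replicate 3 of the P14 controls and replicate 1 of the P14 Casp2-depleted group, and the comparisons here keep the other 21. Casp2, the targeted gene, gave 9 reads over the P7 controls, 8 over the P7 Casp2-depleted group and 0 over each other group, so its counts do not check the genotype labels.

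Cohesin is a ring of a pair of long SMC ATPases (SMC1A and SMC3), closed by the kleisin RAD21 and bound by a STAG subunit. It holds sister chromatids together until they separate, and in nuclei that no longer divide it still extrudes the chromatin loops that bring enhancers to promoters. The loader NIPBL, with its partner MAU2, puts the ring on DNA and drives its movement, WAPL together with PDS5 proteins takes it off, and ESCO1 acetylates SMC3 and so makes its hold more stable. STAG1 and STAG2 are alternative subunits of the same position, and mouse CMs leave the cell cycle in the weeks after birth.

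The 21 libraries kept held 891817 to 2924097 reads on genes, and 34.3 to 76.1% of their uniquely placed reads fell on no gene. All 10 CM markers had reads in every group, with a summed level of 12689 to 89623 CPM (read counts scaled to one common total of reads on genes), where the fibroblast, endothelial, mural and macrophage lists summed to 75.4 to 379, 49.3 to 999, 49.3 to 453 and 14.4 to 187 CPM. Egfl7 and Cd68 were at 0 throughout. The 10 cohesin genes had 17 values of 0 among 210, 7 of them in the 3 P14 control libraries and 4 in the 3 P14 Casp2-depleted libraries. Smc1a, Stag1, Nipbl, Pds5b and Wapl had reads in all 21 libraries. A CPM below is scaled with TMM factors unless stated, while the summed marker levels carry none. Reads were counted over the whole gene with its introns. Whether the libraries held molecular identifiers is not given in the sources used here. Intervals of read counts treat each read as independent and cover counting error only.

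On GRCm39 the ring genes lie at chrX:150799424-150846390 for Smc1a, chr19:53588818-53634295 for Smc3, chr15:51825636-51855179 for Rad21, chr9:100479740-100841428 for Stag1 and chrX:41238146-41368132 for Stag2. Nipbl lies at chr15:8319309-8473990, and Pds5a and Pds5b both lie on chromosome 5. Smc1a and Stag2 are therefore X-linked. Stag1, at 362 kb, is the longest of the 10 genes, against 130 kb for Stag2 and 29.5 kb for Rad21. A protein-coding gene on the other strand, Ribc1, overlaps Smc1a over 456 bases. Ribc1 had 173 reads over the 21 libraries, where Smc1a had 9101. A transcript to be experimentally tested (TEC) on the other strand, Gm42727, overlaps Pds5a over 2823 bases and had 282 reads, where Pds5a had 2828. Reads on more than 1 gene were set apart as ambiguous, at 0.704 to 2.08% of uniquely placed reads in the 21 libraries. Whether counting used strand is not given in the sources used here, so reads of these stretches may have been counted for neither gene.

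Start-site sequences from RefSeq (GRCm38.p6, 250 bases before to 50 after the start) were at hand for 6 of the 10 genes. Those of Smc1a and Smc3, the SMC pair whose counts were lower at P14, and of Stag1, a ring gene whose counts were not called lower, are given 5′ to 3′. Capitals mark every match, on either strand, to the elements searched, which were the E2F element TTTCCCGC, the CCAAT box CCAAT, the NRF1 element (GCGC, any base, then TGCGC), the YY1 element GCCATNTTG, the GC box GGGGCGGGG and the CHR element TTTGAA. All 3 genes lie on the plus strand, Smc1a at chrX:152016178-152016477, Smc3 at chr19:53600146-53600445 and Stag1 at chr9:100643198-100643497.
Smc1a: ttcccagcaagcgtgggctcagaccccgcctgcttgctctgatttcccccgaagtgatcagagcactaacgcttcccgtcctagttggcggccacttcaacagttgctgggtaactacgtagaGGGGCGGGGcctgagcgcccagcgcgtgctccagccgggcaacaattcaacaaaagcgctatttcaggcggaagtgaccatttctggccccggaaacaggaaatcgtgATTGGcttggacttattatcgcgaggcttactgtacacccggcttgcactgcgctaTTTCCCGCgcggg
Smc3: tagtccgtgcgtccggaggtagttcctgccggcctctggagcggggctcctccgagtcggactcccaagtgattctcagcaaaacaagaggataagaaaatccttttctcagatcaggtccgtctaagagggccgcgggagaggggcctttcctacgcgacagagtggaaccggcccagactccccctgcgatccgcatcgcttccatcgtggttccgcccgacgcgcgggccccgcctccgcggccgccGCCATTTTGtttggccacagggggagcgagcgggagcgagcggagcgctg
Stag1: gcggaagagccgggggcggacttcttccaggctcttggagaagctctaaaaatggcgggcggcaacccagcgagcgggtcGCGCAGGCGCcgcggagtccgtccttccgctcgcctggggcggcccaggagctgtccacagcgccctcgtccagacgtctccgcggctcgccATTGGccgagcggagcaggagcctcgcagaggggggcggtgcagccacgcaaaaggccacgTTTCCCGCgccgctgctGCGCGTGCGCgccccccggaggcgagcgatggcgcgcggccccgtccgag

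Smc1a and Stag1 both held the E2F element, which 1.07% of the 32851 promoters in the table hold. In Smc1a it began at base 288 of the 300, and in Stag1 at base 234. Smc3 held none of these letters other than a YY1 element at base 251, an element found in 2.51% of promoters. Stag1 further held NRF1 elements at bases 81 and 251 (4.60% of promoters) and Smc1a a GC box at base 124 (11.4%). The CCAAT box, found in 37.4% of promoters, was in Smc1a, Stag1, Pds5b and Wapl. Pds5b alone of the 6 held the CHR element, which 17.9% of promoters hold. A match describes letters only, and the part of these elements in the levels was not tested.

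At P7 the loader and the SMC1 subunit gave the most reads. Nipbl averaged 635 CPM in controls and 395 in Casp2-depleted nuclei, and Smc1a 588 and 433 CPM. Reads were counted over whole genes, and levels of different genes were compared per kb of gene. The libraries are of 3′ ends, and whether counts grow with gene length was not tested. The order depends on this choice, since Stag1 in P7 controls ranked 4 by CPM and 9 by CPM per kb. On that scale Smc1a led in P7 controls with 12.5 CPM per kb, Nipbl followed with 4.10, and Wapl, Smc3, Pds5a, Pds5b and Rad21 lay between 2.15 and 1.33. Stag2 had 0.746, Stag1 0.515 and Esco1 0.191 CPM per kb. Within the group of Wapl to Rad21, neighbouring levels differed by less than the spread between libraries. At P14 the order on the same scale was flatter, with Smc1a at 2.97 and Wapl at 1.29 CPM per kb in controls, and with Rad21, Wapl and Smc1a at 0.997, 0.876 and 0.854 in Casp2-depleted nuclei.

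**Figure D1:**
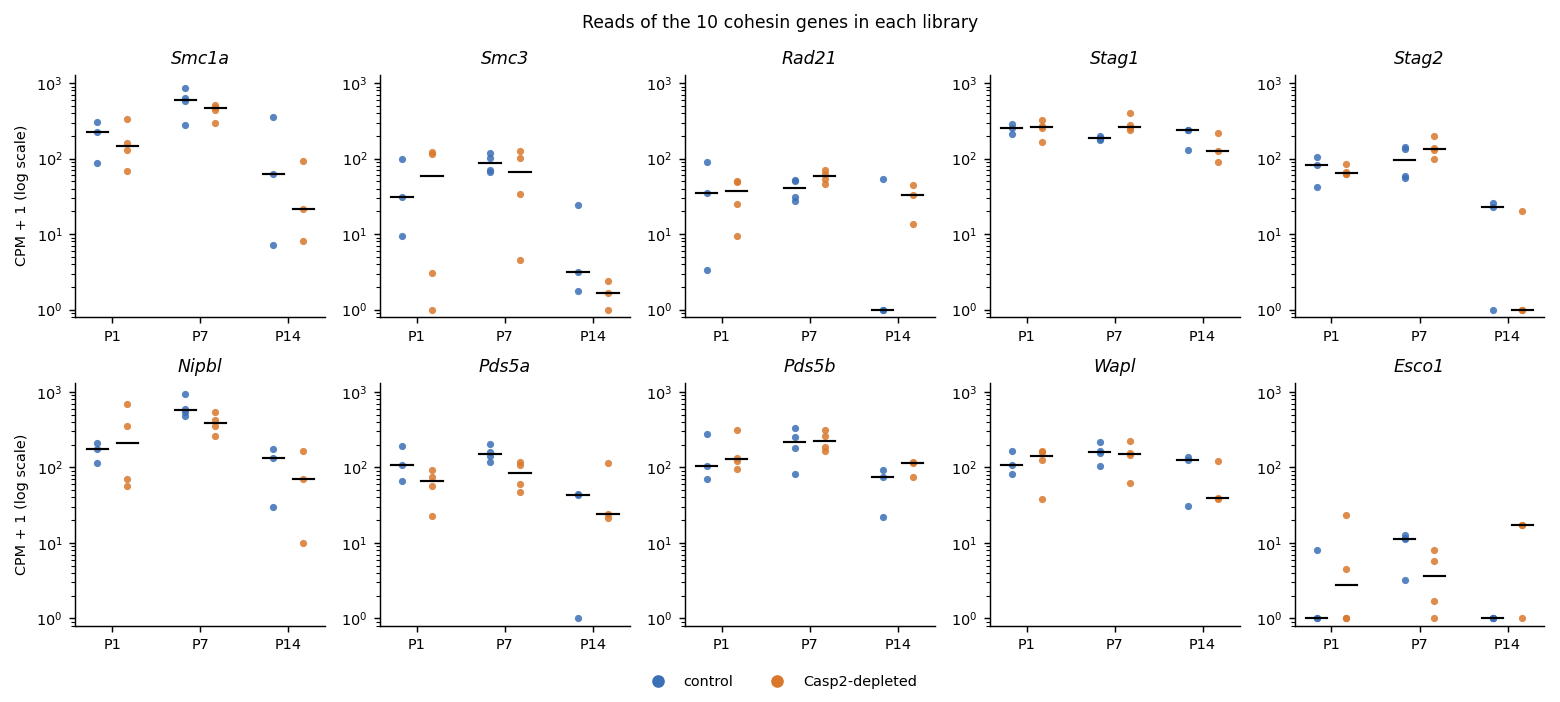
Reads of each cohesin gene in the 21 libraries, as CPM + 1 on a log axis, by postnatal day (x axis) and genotype (colour). Points are libraries, lines are group medians, and a point at 1 is a library with no read. The medians of Smc1a, Stag2 and Nipbl are lower at P14 than at P7, while that of Stag1 in controls is higher at P14 (237 against 185 CPM) and its libraries overlap, though without TMM factors they do not.

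Between P7 and P14 the loader Nipbl was called lower in both genotypes, and the ring genes Smc1a, Smc3 and Stag2 in Casp2-depleted nuclei. The difference between the genotypes was not called for any of the 10 genes, and each of these calls was lost in some settings. Of the 10 genes, 9 had a lower fitted level at P14 in each genotype, and 1 was called lower in controls (Nipbl) and 4 in Casp2-depleted nuclei (Smc1a, Smc3, Stag2 and Nipbl). None was called higher. A call needed a Benjamini-Hochberg adjusted p below 0.05 in edgeR's quasi-likelihood test over all 20368 genes and an absolute log2 fold change above 1, which 1.92% of genes met downwards in controls and 3.0% in Casp2-depleted nuclei. The median log2 fold change of the 10 genes was -2.27 in controls and -1.17 in Casp2-depleted nuclei, where that of all genes tested was -0.75 and -0.61. The scaling bears on these counts. Of all genes called, 99.5% were lower at P14 in controls and 99.7% in Casp2-depleted nuclei, against 84.6 and 89.5% with library totals alone (no TMM factors, a median over all genes of 0) and 86.9 and 74.6% with quantile normalization in limma-voom. With library totals alone 0 of the 10 genes were called in controls and 1 in Casp2-depleted nuclei (Smc1a, at -2.75 ± 0.69 with an adjusted p of 0.00841 in edgeR), and Pds5a in Casp2-depleted nuclei turned to 0.22 from -0.66. Fewer nuclei with a transcript and less of it per nucleus cannot be told apart in pooled nuclei.

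The same interval changed other values of the libraries. The share of uniquely placed reads on no gene was 36.7 to 54.7% in P7 controls and 63.7 to 75.2% in P14 controls, and 34.3 to 64.3% against 72.2 to 76.1% in Casp2-depleted nuclei. Reads on genes were 1635688 to 2420016 at P7 and 891817 to 1278961 at P14 in controls, and 1452114 to 2924097 and 976714 to 1167439 in Casp2-depleted nuclei. Genes with a read numbered 14416 to 17614 at P7 and 7628 to 13651 at P14 in controls, and 14006 to 17770 and 9428 to 12327 in Casp2-depleted nuclei, so that neither measure overlaps between the days. Summed marker levels here carry no TMM factors, while fitted levels and calls do. The summed CM markers were at 59982 to 89623 CPM in P7 controls and 12689 to 46970 CPM in P14 controls. All 10 had a lower fitted level at P14 in each genotype, 8 of them called in controls and 9 in Casp2-depleted nuclei. Without TMM factors the summed fibroblast list ran the other way, from 78.9 to 213 CPM in P7 controls to 174 to 328 CPM in P14 controls. In Casp2-depleted nuclei it ran from 113 to 181 CPM at P7 to 202 to 379 CPM at P14. No gene of it was called, and with TMM factors 5 of its 8 genes had a lower fitted level in controls (median log2 fold change of -0.83). In Casp2-depleted nuclei the summed endothelial list was at 141 to 424 CPM at P7 and 499 to 630 CPM at P14, without TMM factors. With them, 5 of its 6 tested genes had a lower fitted level at P14 (median log2 fold change of -0.93) and none was called. The factors were 0.70 to 0.98 at P7 and 1.22 to 1.57 at P14, so sums and fitted levels are on different scales. The mural list was at 241 to 419 CPM at P7 and 99.4 to 228 CPM at P14 in these nuclei, with 3 of 5 genes lower and 1 of them called. Of the mitochondrially encoded genes 7 of 8 tested were lower at P14 in each genotype, with 0 called in controls and 1 in Casp2-depleted nuclei. The erythroid list had 4 of 4 tested genes lower in controls and 3 of 4 in Casp2-depleted nuclei, none called, with medians of -5.17 and -5.43 at summed levels of at most 110 CPM. The part of these levels in the results was not tested. The pools held 6 hearts at P7 and 2 at P14, so pool size and day cannot be told apart. When the percent of reads off genes was a covariate in the model, 0 of the 10 genes were called in either genotype. Stag2 in Casp2-depleted nuclei then stood at -4.16 ± 1.25 (adjusted p of 0.111), against -4.46 without the covariate, and Smc1a at -2.33 ± 0.71, against -3.43. Smc3 stood at -3.80 ± 1.72, against -6.44, and Nipbl at -0.86 ± 0.63, against -2.31, and in controls at -0.95 ± 0.66, against -2.49. With all 24 libraries 0 were called.

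**Figure D2:**
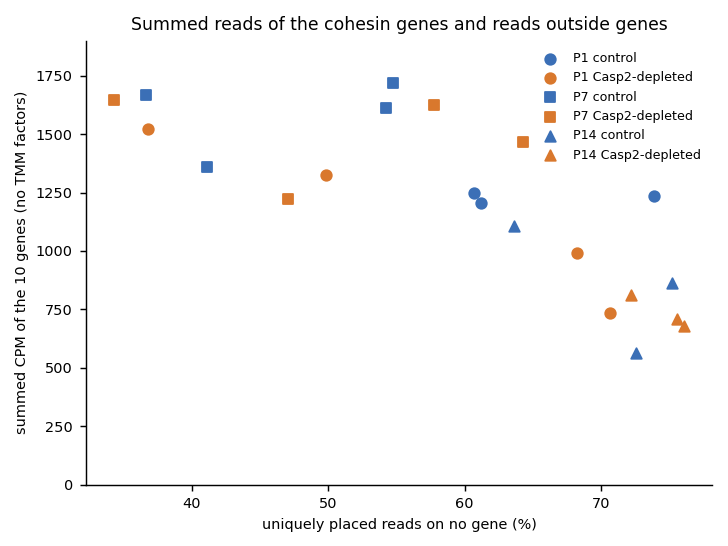
Summed CPM of the 10 cohesin genes (y axis, without TMM factors) against the percent of uniquely placed reads on no gene (x axis) in the 21 libraries, with days as symbols and genotypes as colours. P14 libraries lie at the lower right, at 565 to 1105 CPM, and P7 libraries at 1221 to 1721 CPM.

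Over the 21 libraries the summed level of the 10 genes and the percent of reads off genes had a Pearson r of -0.78 and a Spearman rho of -0.81, given as a description, since days and both measures share the libraries. The sum was 1361 to 1721 CPM without TMM factors in P7 controls and 565 to 1105 CPM in P14 controls. In Casp2-depleted nuclei it was 1221 to 1648 CPM at P7 and 681 to 809 CPM at P14. At P1 it was 1207 to 1248 CPM in controls and 736 to 1523 CPM in Casp2-depleted nuclei, so that the P1 Casp2-depleted group spanned both later levels.

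Smc1a, the SMC ATPase that pairs with Smc3, had 279, 872, 628 and 573 CPM in the P7 control libraries and 352, 60.8 and 6.07 CPM at P14. Replicate 1 at P14 lies above the lowest P7 library, so the groups overlap. The log2 fold change of -2.07 ± 0.67 (SE, n = 3 against 4 libraries) was not called, with an adjusted p of 0.0794 in edgeR. It was called in 2 of 14 alternative settings, robust shrinkage of the dispersions (adjusted p of 0.0342) and the replicate block (adjusted p of 0.0481), and without P14 control replicate 1, where it was -4.13. In Casp2-depleted nuclei Smc1a had 507, 444, 484 and 297 CPM at P7 and 92.4, 20.8 and 7.21 CPM at P14. These groups do not overlap, and the log2 fold change was -3.43 ± 0.72 (adjusted p of 0.000254 in edgeR). This call was kept in all 7 fits that leave out a library and in 9 of 14 other settings.

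Smc3, which with Smc1a forms the arms of the ring, was read less often than its partner. It had 69.0, 118, 102 and 65.2 CPM in P7 controls and 2.12, 0.75 and 23.5 CPM in P14 controls. These groups do not overlap, but the log2 fold change of -3.32 ± 1.35 was not called (adjusted p of 0.244 in edgeR). In Casp2-depleted nuclei the 4 P7 libraries had 215, 41, 184 and 5 reads and the 3 P14 libraries 2, 0 and 1. The level per library was 107-fold lower at P14 by these counts, with a 95% interval of 36.5 to 522 that covers counting error only. The fitted log2 fold change was -6.44 ± 1.63 (adjusted p of 0.0055 in edgeR). Without P14 Casp2-depleted replicate 3 or 4 it was no longer called (adjusted p of 0.0963 and 0.0637), nor with library totals alone (-5.71 ± 1.80, adjusted p of 0.0907).

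Rad21, the kleisin that closes the ring, was not called in any comparison. In P7 controls it ran from 26.6 to 51.7 CPM, and at P14 it had 70 reads in replicate 2 and 0 in the other 2 libraries. In Casp2-depleted nuclei it ran from 45.4 to 69.8 CPM at P7 and from 12.5 to 43.7 CPM at P14, groups that do not overlap with TMM factors but do without them (39.2 to 51.0 and 19.5 to 53.1 CPM). The log2 fold changes of -1.17 ± 1.40 and -0.96 ± 1.38 were both within their error.

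The STAG subunits differed from each other. Stag2 had 134, 142, 58.3 and 54.0 CPM in P7 controls and 21.9, 24.8 and 0 CPM at P14. In Casp2-depleted nuclei it had 99.0, 199.8, 128 and 136 CPM at P7, and 19.0 CPM in one P14 library and 0 in the other 2. Neither pair of groups overlaps, and the log2 fold change was -2.63 ± 1.08 in controls (adjusted p of 0.248, not called) and -4.46 ± 1.19 in Casp2-depleted nuclei (adjusted p of 0.00995, both in edgeR). This was the call that held in most settings, 11 of 14. It was lost with library totals alone (-3.85 ± 1.24, adjusted p of 0.103) and without P7 Casp2-depleted replicate 2 (adjusted p of 0.0516), or P14 Casp2-depleted replicate 3 or 4.

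Stag1 was not called in any comparison. It had 201, 189, 181 and 174 CPM in P7 controls and 237, 240.0 and 128 CPM at P14, and the log2 fold change was 0.11 ± 0.66, the one value above 0 among the 10 genes in controls. Without TMM factors every P14 control library lies above every P7 one, at 188 to 312 against 108 to 169 CPM, and the log2 fold change was 0.85 ± 0.62 (adjusted p of 0.452, not called). On that scale the P1 controls were at 232 to 284 CPM, within the P14 range. With TMM factors but without P14 control replicate 1, the log2 fold change from P7 to P14 was -0.02. In Casp2-depleted nuclei Stag1 had 402, 239, 252 and 275 CPM at P7 and 88.1, 125 and 218 CPM at P14. These groups do not overlap with TMM factors but do without them (167 to 294 CPM at P7 and 107 to 340 CPM at P14), and the log2 fold change of -1.02 ± 0.68 was not called (adjusted p of 0.415 in edgeR).

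Within a library the share of Stag1 among the reads of both STAG genes needs no scaling between libraries. In P7 controls Stag1 made up 60.1, 57.1, 75.7 and 76.3% of these reads, and in P14 controls 91.5, 90.7 and 100%. In Casp2-depleted nuclei the shares were 80.2, 54.4, 66.3 and 67.0% at P7, and 82.2, 100 and 100% at P14. The P14 shares were above the P7 shares of the same genotype in all 6 P14 libraries. The closest were 82.2 and 80.2%, with 95% Wilson intervals of 75.4 to 87.5% and 77.7 to 82.5%. At P1 the shares were 66.9 to 87.6% in controls and 73.1 to 80.9% in Casp2-depleted nuclei. No test was made of these shares, since the members were chosen with earlier results known. Over all genes tested, long genes had higher fold changes than short ones between P7 and P14. The median log2 fold change in controls was -1.57 for genes under 25 kb, -0.24 for genes of 100 to 200 kb, such as Stag2, and 0.17 for genes of 200 kb or more, such as Stag1, and in Casp2-depleted nuclei it was -1.35, -0.13 and 0.18. The part of gene length in the STAG shares was not tested.

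**Figure D3:**
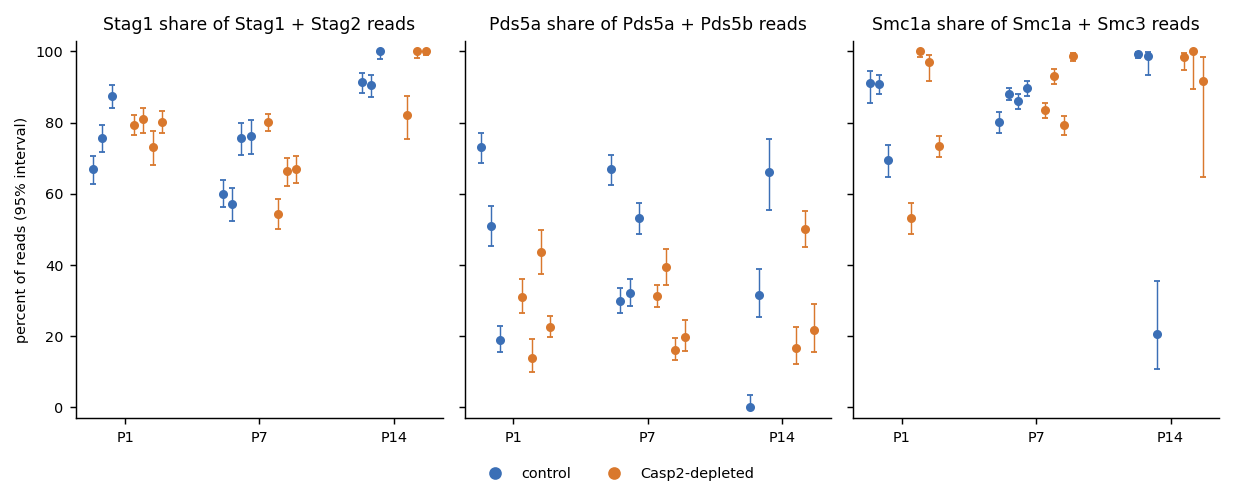
Share of one gene among the reads of a pair, in percent, in each of the 21 libraries by day and genotype, for Stag1 with Stag2, Pds5a with Pds5b and Smc1a with Smc3. Bars are 95% Wilson intervals, which cover counting error only. The Stag1 share is 82.2 to 100% at P14 and 54.4 to 80.2% at P7, while the other pairs spread widely within groups.

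Nipbl, the loader, had 539, 926, 599 and 476 CPM in P7 controls and 177, 28.5 and 133 CPM at P14. In Casp2-depleted nuclei it had 543, 261, 418 and 356 CPM at P7 and 161, 8.83 and 68.2 CPM at P14. In both genotypes every P14 library lies below every P7 library. Without TMM factors this holds in controls, while in Casp2-depleted nuclei replicate 2 at P14, with 196 CPM, lies above the lowest P7 library, with 183 CPM. The log2 fold change was -2.49 ± 0.67 in controls (adjusted p of 0.0179) and -2.31 ± 0.67 in Casp2-depleted nuclei (adjusted p of 0.0244, both in edgeR). The control call held in 5 of 14 alternative settings. It was lost with library totals alone (-1.69 ± 0.64, adjusted p of 0.2399) and without P7 control replicate 2, or P14 control replicate 2 or 4. The Casp2-depleted call held in 2 of 14, was lost with library totals alone (-1.61 ± 0.64, adjusted p of 0.245), was lost with the replicate block (adjusted p of 0.0544) and was lost without P7 Casp2-depleted replicate 1, or P14 Casp2-depleted replicate 3 or 4.

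The regulators did not pass the test in any comparison. Pds5a had 118 to 206 CPM in P7 controls and 0, 42.8 and 41.8 CPM at P14, with a log2 fold change of -2.47 ± 1.00. In Casp2-depleted nuclei Pds5a had 46.4 to 118 CPM at P7 and 20.3 to 112 CPM at P14, with a log2 fold change of -0.66 ± 0.93. Pds5b, its paralog, gave -1.75 ± 0.77 and -1.19 ± 0.75. Wapl, which opens the ring, gave -0.73 ± 0.81 and -1.15 ± 0.82. For Pds5b the Casp2-depleted groups did not overlap (163 to 308 CPM at P7, 73.4 to 116 CPM at P14), though they did without TMM factors (114 to 266 and 115 to 163 CPM), and for Wapl the groups overlapped in both genotypes.

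Esco1, the acetyltransferase of SMC3, was the least read of the 10 genes, with 186 reads over the 21 libraries. It had 20, 14, 18 and 3 reads in P7 controls and 0 in each P14 control library, a level at least 12.1-fold lower at the limit of 3 reads over the P14 group. This was not called (adjusted p of 0.349 in edgeR). In P14 Casp2-depleted nuclei it had 0, 26 and 25 reads, against 10, 9, 1 and 0 reads at P7. Put at its bound, Esco1 stays the lowest of the 10 genes in controls and the median of -2.27 is the same.

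**Figure D4:**
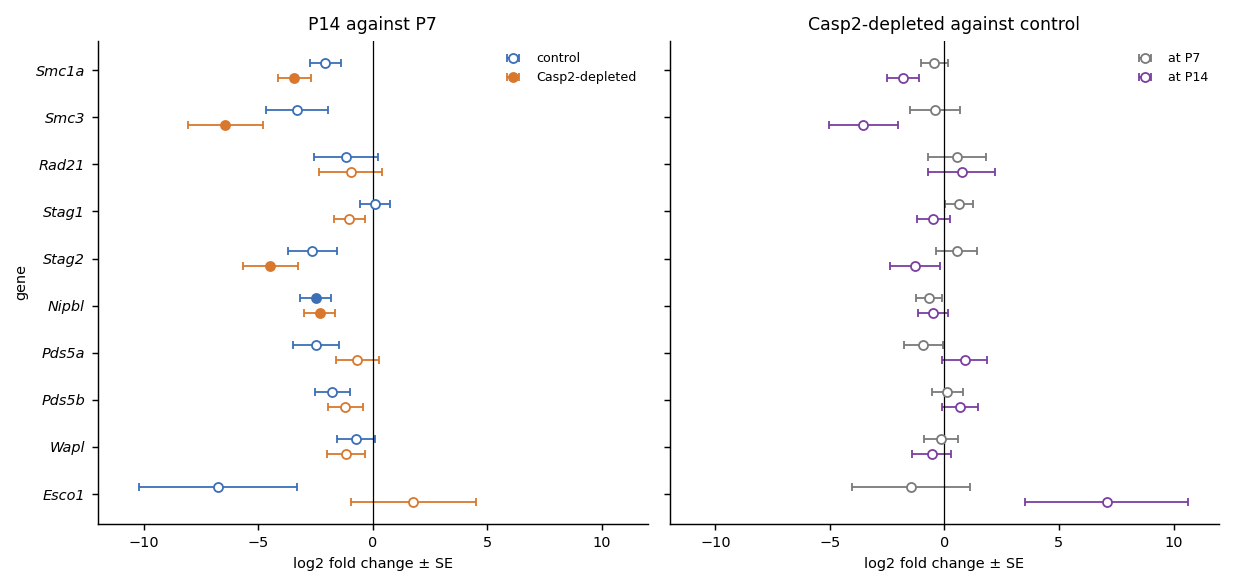
Log2 fold changes with SE of each cohesin gene, from P7 to P14 in each genotype (left) and between genotypes at P7 and P14 (right). Filled points passed the test and open points did not, and the points of Esco1 that involve P14 controls, which had no read of it, are fitted values that depend on the prior count. The 5 filled points are Nipbl in both genotypes and Smc1a, Smc3 and Stag2 in Casp2-depleted nuclei, and between genotypes all points are open.

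Counted over the 10 genes, the groups did not overlap downwards in 5 genes in controls (Smc3, Stag2, Nipbl, Pds5a and Esco1) and in 7 in Casp2-depleted nuclei (Smc1a, Smc3, Rad21, Stag1, Stag2, Nipbl and Pds5b). The same held for 13.5% and 10.9% of all genes tested. Without TMM factors these were the same 5 genes in controls (9.52% of all genes) and 3 in Casp2-depleted nuclei (Smc1a, Smc3 and Stag2, 7.62% of all genes), and Stag1 in controls did not overlap upwards (4.71%). Both comparisons use their own libraries of each genotype. The difference between the 2 intervals was tested as an interaction and was not called for any of the 10 genes, with a smallest adjusted p of 0.518 for Esco1, where 0.0344% of all genes were called. For Smc1a the interaction was -1.36 ± 0.89 and for Smc3 -3.12 ± 1.80 on the log2 scale.

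Between P1 and P7 no cohesin gene passed the test. In controls 8 of the 10 genes had a higher fitted level at P7, with a median log2 fold change of 0.46 against 0.21 for all genes, and in Casp2-depleted nuclei 9 of 10, with 0.44 against 0.07. The calls over all genes were 0.0491% and 0.0245%. Nipbl moved most in controls, from 114, 177 and 209.7 CPM at P1 to 476 to 926 CPM at P7. Its log2 fold change was 1.93 ± 0.66, with an unadjusted p of 0.00329 and an adjusted p of 0.659 in edgeR. Its groups do not overlap, as those of 6.89% of all genes do not, upwards. The control groups of Stag1 did not overlap downwards, at 213 to 286 CPM at P1 and 174 to 201 CPM at P7 (-0.43 ± 0.66, not called). Such a separation was found for 2.86% of all genes. It held without TMM factors, at 232 to 284 and 108 to 169 CPM (5.59% of all genes). In Casp2-depleted nuclei the groups of Stag2 did not overlap upwards, at 60.9 to 84.0 CPM at P1 and 99.0 to 199.8 CPM at P7 (1.48% of all genes). Without TMM factors those of Smc1a did not instead, at 81.9 to 242 and 291 to 417 CPM (1.15% of all genes). In Casp2-depleted nuclei Nipbl already had 347, 70.2, 56.2 and 694 CPM at P1, a spread wider than the control change, and its log2 fold change was 0.43 ± 0.57. The interaction of genotype and this interval was -1.49 ± 0.85 for Nipbl, with an adjusted p of 0.845, and was called for none of the 10 genes and none of all genes (0.0%).

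Smc1a likewise ran from 86.1, 306 and 222 CPM at P1 to its P7 level in controls, with a log2 fold change of 1.52 ± 0.65, and from 67.7 to 330 CPM in P1 Casp2-depleted nuclei, with 1.34 ± 0.59. Neither was called (adjusted p of 0.659 and 0.717 in edgeR).

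Over the whole interval from P1 to P14, 0 of the 10 genes were called in controls and 1 in Casp2-depleted nuclei, Smc3 with -6.28 ± 1.62 (adjusted p of 0.00969 in edgeR). Smc1a, at -2.10 ± 0.67, was not called (adjusted p of 0.0716 in edgeR), though with robust shrinkage it was (adjusted p of 0.0322). All genes were called at 0.363% in controls and, downwards, at 2.13% in Casp2-depleted nuclei. This comparison shares its P14 libraries with the one from P7. The groups did not overlap downwards for Stag2 and Pds5a in controls and for Stag2 in Casp2-depleted nuclei, with and without TMM factors. Such a separation was found for 6.41% and 4.78% of all genes with the factors and for 5.2% and 3.63% without them. P1 Casp2-depleted Smc3 was uneven, with 224, 0, 3 and 240 reads, and its groups overlap. Under the replicate block the call of Smc3 was lost (adjusted p of 0.138) and Stag2 was called instead (-4.41 ± 1.29, adjusted p of 0.0483). Without P1 Casp2-depleted replicate 1 or 4, or without P14 Casp2-depleted replicate 3 or 4, 0 genes were called, while without P14 Casp2-depleted replicate 2 there were 4, and without P1 Casp2-depleted replicate 2 or 3 there were 2 and 3. The interaction over this interval was called for none of the 10 genes and for 0.123% of all genes.

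Between genotypes no cohesin gene was called at any day. Casp2-depleted nuclei had log2 fold changes of -0.996 to 1.41 against controls at P1 and of -1.45 to 0.65 at P7, and the smallest adjusted p was 0.898 at P1 and 1 at P7. At an unadjusted p below 0.05 there were 0 of the 10 genes at either day, where 1303 and 791 of the 20368 genes were. All genes were called at 0.0% at both days. At P7 the groups did not overlap for Stag1, with 174 to 201 CPM in controls and 239 to 402 CPM in Casp2-depleted nuclei (0.65 ± 0.62), and for Pds5a, with 118 to 206 and 46.4 to 118 CPM (-0.92 ± 0.85). Such a separation was found upwards for 0.697% and downwards for 0.943% of all genes, and without TMM factors for none of the 10.

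At P14, 47 genes were called between genotypes (0.231%), none of them a cohesin gene. Over the 8 combinations of dispersion settings that were fitted, this count ran from 0 to 47, again with no cohesin gene called. An unadjusted p below 0.05 was found for 3 cohesin genes and for 2379 of all genes tested (11.7%). Smc1a was at -1.80 ± 0.69 (adjusted p of 0.342) and Smc3 at -3.55 ± 1.505 (0.403, both in edgeR). Esco1 had 0 reads in 3 control libraries and 0, 26 and 25 in the Casp2-depleted libraries, so its groups overlap. By pooled reads its level was at least 15.2-fold higher, a bound that covers counting error only (adjusted p of 0.418 in edgeR). The Smc1a value rests on P14 control replicate 1, which held 498 of the 587 control reads. Without that library it was 0.26, and without P14 Casp2-depleted replicate 2 Smc1a (-3.31) and Stag2 were called. Stag2 had 0 reads in the 2 libraries then left in that group, so its fitted value depends on the prior count and is not given. Averaged over the 3 days, 0 cohesin genes and 0.0344% of all genes were called, and Smc1a had the largest departure for its error, at -0.83 ± 0.36 (unadjusted p of 0.0222, adjusted p of 0.475 in edgeR). These values do not show that the genotypes were alike, since SEs ran up to 3.56 at P14.

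Genes that work with cohesin were taken from a list of 48: loading and release factors, meiotic subunits, cleavage, replication-coupled loading, chromatin loop partners, condensin and the SMC5/6 complex. From P7 to P14, 3 of its 41 tested genes were called in controls and 7 in Casp2-depleted nuclei, all lower. The median log2 fold change was -1.39 and -1.69. Over all genes tested, 1.92% and 3.0% were called lower and the median was -0.75 and -0.61. Of all genes called, 99.5% and 99.7% were lower. The list genes called in controls were Smc4, the SMC ATPase of condensin (-4.97 ± 1.04), Med1 of the Mediator complex (-4.17 ± 1.05) and the nucleosome remodeller Chd4 (-1.64 ± 0.49). In Casp2-depleted nuclei they included Smc4 (-3.77 ± 0.97), Chd4 (-2.55 ± 0.51), Ncapd2 of condensin, Slf2 of the SMC5/6 pathway, Mau2 and Ctcf. When the share of reads on no gene entered the model, 0 of the 41 were called in either genotype. With all 24 libraries 0 were called in controls and 2 in Casp2-depleted nuclei, and with library totals alone 1 (Smc4) and 3 (Chd4, Mau2 and Slf2). The 7 calls in Casp2-depleted nuclei became 3 without P14 Casp2-depleted replicate 3 (Chd4, Ncapd2 and Slf2) and 2 without replicate 4 (Chd4 and Slf2), and the 3 in controls became 1 (Smc4) without P7 control replicate 2 or when only the groups compared were fitted, and 2 without each of 5 other control libraries.

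Mau2, the partner of the loader Nipbl, fell in Casp2-depleted nuclei from 284 reads over 4 libraries at P7 to 0 over 3 at P14, at least 68.5-fold lower (adjusted p of 0.00596 in edgeR). This call was lost without P14 Casp2-depleted replicate 3 or 4, when only the groups compared were fitted, and with the percent of reads off genes in the model. In controls it was not called, with 34.4 ± 12.6 CPM (SD, n = 4) at P7 and 33.9 ± 44.2 CPM (n = 3) at P14. Ctcf, the factor at which loop extrusion halts, had 139.9 ± 60.0 CPM at P7 and 11.0 ± 7.16 CPM at P14 in Casp2-depleted nuclei, with a log2 fold change of -3.65 ± 1.08 (adjusted p of 0.03 in edgeR). The Ctcf call held in 5 of 14 alternative settings and was lost without P7 Casp2-depleted replicate 1 or 2, or P14 Casp2-depleted replicate 3 or 4. In controls it had 138 ± 29.5 and 19.7 ± 15.7 CPM and was not called. The meiotic subunits had a higher fitted level at P14 in 4 of 4 genes in both genotypes, and none was called. Smc1b, the meiotic relative of Smc1a, had 46.4 ± 23.1 CPM at P7 and 114 ± 59.8 CPM at P14 in controls. Hdac8, the deacetylase of SMC3, was at 191 ± 52.0 and 139.8 ± 108 CPM in controls and 180 ± 17.4 and 218 ± 131 CPM in Casp2-depleted nuclei. Separase (Espl1), which releases the chromatids, and its inhibitor securin (Pttg1) were not called. Between genotypes none of the 41 genes tested was called at any day. Mau2 at P14 came nearest, at least 53.2-fold lower in Casp2-depleted nuclei by pooled reads, with an adjusted p of 0.058 in edgeR. Its P14 control libraries ran from 0 to 83.9 CPM, so the groups overlap. Mau2 was called by DESeq2 and without P14 control replicate 2 or 4. At P14 Ddx11 was called with all 24 libraries, and Ncapd3 and Smc4 without P14 Casp2-depleted replicate 2.

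Over the 21 libraries the cohesin genes followed one another to unequal degrees. On the log2 CPM scale Smc1a and Stag2 had a Pearson r of 0.85, Smc3 and Nipbl 0.83 and Smc1a and Wapl 0.79, while Stag1 and Pds5a had -0.01. Against the mean of the other 9 genes, Smc1a had an r of 0.78, Nipbl 0.73 and Stag2 0.72, and Stag1 and Esco1 0.42 and 0.22. Among 9525 genes outside the lists with at least 500 reads, those most like the mean of the 10 genes included Nsd1 (0.95), Pxdn (0.95), Coro6 (0.95) and Mettl6 (0.94), where the median gene had 0.27. Nsd1, a histone methyltransferase gene, averaged 444 and 345 CPM at P7 and 85.8 and 92.5 CPM at P14 in controls and Casp2-depleted nuclei. The 21 libraries share days and depth, so these values carry no test.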

How the data were processed

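RNA of PCM1-sorted CM nuclei was measured in 24 libraries of pooled hearts, at 3 days and in 2 genotypes. The authors trimmed the reads with cutadapt 4.0, aligned them with STAR 2.6.1e to GRCm39 with Ensembl annotation, and deposited counts made with HTSeq 2.0.3 over exons and introns. The deposited counts are raw, one whole number for each gene identifier. Strand setting and molecular identifiers are not given in the sources used here. Gene coordinates came from GENCODE on GRCm39 and start-site sequences from RefSeq on GRCm38.p6. Reads on no gene (34.3 to 76.1% of uniquely placed reads in the libraries fitted) stayed out of library sizes and tests.

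Groups and replicate numbers follow the sample labels. The study calls each pool a biological replicate, and whether pools share litters is not given in the sources used here. edgeR 4.0.16 in R 4.3.3 was fitted to 21 libraries and 20368 genes (those with 10 or more reads over these libraries, found in 3 or more of them) with TMM factors, 6 group means and quasi-likelihood dispersions at their default settings, leaving 15 residual degrees of freedom. A gene was called at an adjusted p below 0.05 over all genes tested and an absolute log2 fold change above 1, in 13 comparisons. An SE is the absolute log2 fold change over the square root of F, and correlations use log2 CPM with 2 reads added as a prior. Where a group had 0 reads, 3 reads were taken as its upper limit, and a bound from this limit covers counting error only, not the spread between libraries.

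The members and gene lists were chosen with earlier results of these data known. Genes named outside the members are those called in a list of 48, the 3 with the most reads in its groups where a value is given, and the 5 genes most like the members' mean, and 2 genes that these rules pick are not reported here. The deposited names mark the replicate number as a batch, so it was taken to pair libraries. Between genotypes, libraries of one number deviated from their group means with correlations of -0.06 to 0.19 in 9 pairs. Alternatives were DESeq2 1.42.0, limma-voom (limma 3.58.1) with TMM or quantile normalization, RLE size factors, other filters, all 24 libraries, equal depth of 891817 reads, only the groups compared, the replicate block, the percent of reads on no gene as a covariate, and each library left out in turn. That covariate together with the block, and library totals without scaling factors, were added after seeing the data. So was robust shrinkage, after 8 combinations of dispersion settings had been fitted in search of the calling counts of an earlier analysis. It was set as the main fit for a time, and the default settings of the planned design were then restored. Figures were drawn with matplotlib 3.10.9.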

Additional observations from a re-analysis of the deposited data

Results flagged for a closer look

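Within the 3 groups of 4 libraries, 30 values of member and group were examined for a library far from the others, and 2 stood apart, where chance gives about 1 in 20. In P1 Casp2-depleted replicate 1 Stag2 was at 84.0 CPM, against 60.9 to 64.6 CPM in the other 3 libraries, a gap of 0.843 of the range. In the same library Esco1 was at 22.1 CPM, against 0 to 3.50 CPM, a gap of 0.842 of the range.

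The 3 libraries that the study left out enter no comparison above, and 5 of their 30 member values exceeded every kept control library of the same day (CPM without TMM factors). In P1 control replicate 1 these were Nipbl at 412 CPM (151.9 to 203 CPM in the kept controls), Stag1 at 375 CPM (232 to 284) and Stag2 at 161.0 CPM (39.2 to 141). In P14 control replicate 3, where 2049 genes had a read, Stag1 had 563 reads or 529.6 CPM (188 to 312 CPM in the kept controls) and Nipbl 121 reads, and the other 8 cohesin genes had 0. In P14 Casp2-depleted replicate 1, where 4285 genes had a read, Smc1a had 928 reads or 644 CPM (8.97 to 389 CPM in the kept controls), while Stag2, Smc3, Rad21, Pds5b and Esco1 had 0. With all 24 libraries in the fit, Smc1a from P7 to P14 in Casp2-depleted nuclei was at -1.59 ± 0.92 in place of -3.43 ± 0.72.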

How the results depend on the processing

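From P7 to P14 all 10 genes kept their direction in both genotypes in 14 alternative settings, except Pds5a in Casp2-depleted nuclei with library totals alone (0.22), and with each library left out in all but Stag1 in controls (-0.019 to 0.36). Calls moved more, and the cause was not tested. In controls the 1 call (Nipbl) became 2 (with Smc1a) under robust shrinkage and under the replicate block, and 0 with RLE factors, library totals alone, filterByExpr, all 24 libraries, limma-voom with TMM or quantile normalization, only the groups compared, and the percent of reads on no gene as a covariate, without or with the replicate block. In Casp2-depleted nuclei the 4 calls became 2 (Smc3 and Stag2) with limma-voom and TMM, 1 (Smc1a) with library totals alone, 1 (Stag2) with quantile normalization and with that covariate plus the replicate block, and 0 with all 24 libraries and with that covariate alone. From P1 to P14 in Casp2-depleted nuclei the 1 call (Smc3) became 2 under robust shrinkage and with DESeq2, and 0 with library totals alone, all 24 libraries, only the groups compared, and that covariate, without or with the block. With each library left out, the counts ran from 0 to 2 in controls and 1 to 4 in Casp2-depleted nuclei from P7 to P14, from 0 to 4 from P1 to P14 in Casp2-depleted nuclei, and from 0 to 2 between genotypes at P14. Over the 8 combinations of dispersion settings, the calls from P7 to P14 were 1 or 2 in controls and 4 in Casp2-depleted nuclei.

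The replicate block alone gave 2 calls in controls and 3 in Casp2-depleted nuclei (without Nipbl) from P7 to P14, and Stag2 in place of Smc3 from P1 to P14 in Casp2-depleted nuclei. It changed no other call of the 10 genes. Between genotypes at P14 Smc1a reversed with all 24 libraries (0.43), and with each library left out it ran from -3.31 to 0.26. Over all genes, 394 were called from P7 to P14 in controls, which ran from 10 with the covariate and the block to 1150 with limma-voom and TMM. The median of all genes over the same interval moved from -0.75 to -0.52 with RLE factors, 0 with library totals alone and -0.12 with quantile normalization. In the 21 libraries a count of 0 allows 1.03 to 3.36 CPM without TMM factors, and Esco1 and P14 Smc3 lie near that limit.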
